A study of Homo sapiens with 21 samples.

Results

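RNA was compared between OCI-AML5 cells edited with a guide against EPCR and control OCI-AML5 cells, both kept in UM171 for 24 h. OCI-AML5 is a human acute myeloid leukaemia line, and UM171 is a small molecule that expands human haematopoietic stem and progenitor cells in culture. The 6 libraries compared were chosen by their labels for genotype, treatment and time, with 3 sgEPCR and 3 control libraries, out of 21 libraries in all. Both groups are labelled with 500 nM UM171, while the study's legend for this comparison gives a lower dose. The sgEPCR libraries are described as AML5 clones that express sgEPCR, with the genotype given as EPCR knockdown, while the labels of the control libraries name no guide and the study calls its control guide sgAAVS1. The study describes independent edited clones, and the labels do not tie a library to a clone, so the effect of the edit and the origin of the clones or cultures cannot be told apart. Nothing in the labels says that the 3 libraries of a group came from separate cultures, so the p-values below measure a spread between libraries that may be technical. That spread was pooled over the 12 libraries of the fit, which include the DMSO libraries named next. Libraries of the same genotypes in DMSO, the vehicle, are set beside the UM171 values where they help. Their labels give 24 h for the sgEPCR cells and 72 h for the control cells.

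EPCR, the endothelial protein C receptor, is the product of PROCR. It binds protein C and presents it to thrombin held by thrombomodulin, and the activated protein C made in this way can cleave the receptor PAR1 and dampen inflammatory signalling in endothelium. On blood-forming cells EPCR marks primitive stem cells, and it is among the proteins that UM171 induces. NF-kB and AP-1 are the transcription factor families through which most inflammatory stimuli act, and their early targets include the inhibitors that later shut them down. The comparison asks what differs in the RNA of UM171-treated cells when EPCR is disrupted.

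Each library held 24.3 to 51.5 M estimated counts in the controls and 30.6 to 41.4 M in the sgEPCR group. Replicate 2 of the sgEPCR group stood apart. Mitochondrial genes took 32.2% of its counts, beside 9.16% and 9.21% in replicates 1 and 3 and 7.73% to 7.81% in the controls, and replicate 1 of the sgEPCR cells in DMSO had 35.9%. TPM (a transcript level scaled for gene length and to the same total in every library) was therefore low for most other genes in replicate 2, which was the lowest of the 3 sgEPCR libraries for 89.0% of the 15901 genes tested. Scaling the counts by TMM, a normalization that sets most genes level, removed the general shift but not the difference: across genes the log2 CPM of replicate 2 correlated at 0.962 with replicates 1 and 3, as the controls did with replicates 1 and 3 (0.960 to 0.962), beside 0.994 between replicates 1 and 3. The SD of its deviations from the group mean was 0.556, beside 0.322 and 0.320 in replicates 1 and 3. Beside TPM values the text gives the log2 fold change of the TMM-scaled counts, and counts of genes are given also without this library. Markers of red cells were under 1 TPM in all 6 libraries for 7 of 7 genes, those of fibroblasts and epithelium for 9 of 10, of T cells for 6 of 8, of endothelium for 5 of 7 and of B cells for 4 of 7, while 8 of 10 genes of myeloid identity were at 1 TPM or more in all 6.

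PROCR (ENSG00000101000, chromosome 20, 35172072 to 35216240, plus strand, GRCh38) was lower in the sgEPCR cells. Its level was 48.5, 48.48 and 48.5 TPM in the control libraries and 8.94, 4.23 and 8.41 TPM in the sgEPCR libraries. The groups did not overlap, and transcript remained in every edited library. The TMM-scaled difference was -2.63 ± 0.12 (log2, SE, n = 3 per group), or 6.2-fold (adjusted p = 1.9e-07, edgeR quasi-likelihood test). In DMSO the mean level was 3.68 TPM in the controls and 3.59 TPM in the sgEPCR cells, and the TMM-scaled difference there was 0.42 (adjusted p = 0.022). The gap in UM171 minus the gap in DMSO was -3.06 ± 0.17 (log2, SE, adjusted p = 5.8e-07). In what follows ± after a log2 difference is its SE with 3 libraries per group, and adjusted p values are from the same edgeR test.

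Of 15901 genes tested, 709 (4.46%) passed an adjusted p of 0.0001 and a 2-fold difference, the limits the study used for its heatmaps. Among them 425 (2.67%) were higher and 284 (1.79%) lower in the sgEPCR cells. The median difference was 3.41-fold among the higher and 2.62-fold among the lower genes. Of the higher genes 392 were protein coding and 381 had all 3 sgEPCR TPM values above all 3 control values, a pattern seen in 10.5% of all tested genes, while TPM groups lay apart in either direction in 46%. All 284 of the lower genes had their TPM values on the lower side, where 35.5% of all genes lay, a share raised by replicate 2. At an adjusted p under 0.05 with no fold limit, 43% of all tested genes were called, 20.8% higher and 22.2% lower, and the member counts of the gene lists below are read against those shares. Member counts from limma on log2(TPM + 1) have a lower background, 656 higher and 1077 lower of 15845 genes at that limit. The number past these strict limits depended on the spread estimate, and 1 gene passed both when the 6 libraries were fitted alone, and limma on log2(TPM + 1) called 42, 35 higher and 7 lower. In bulk RNA fewer cells of a type or phase and less RNA per cell cannot be told apart. Without sgEPCR replicate 2 the count was 842, while all 709 genes kept their direction at an adjusted p under 0.05 without that library and in the fit of 6, and 537 did in the limma fit. The 709 were chosen from these same libraries at a far stricter limit, so their keeping direction is not independent support.

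**Figure D1:**
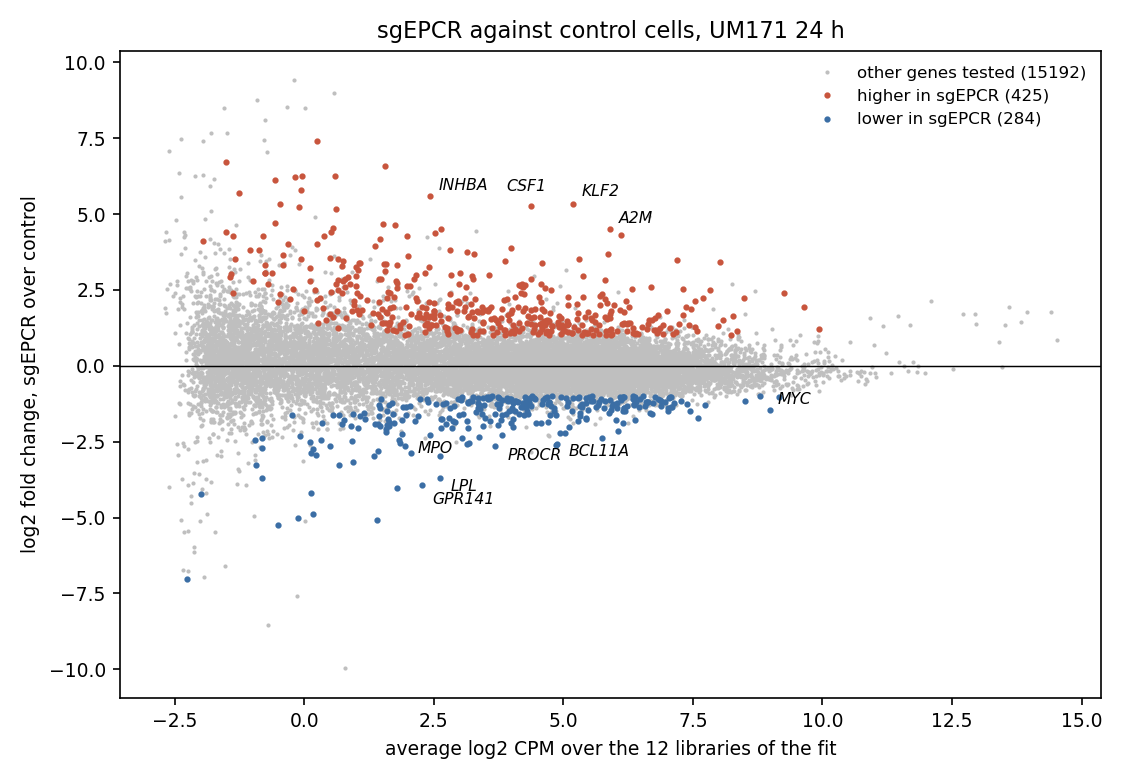
Log2 fold change of sgEPCR over control cells in UM171 (vertical axis) against the average log2 CPM of the 12 fitted libraries (horizontal axis), 1 point per tested gene; coloured points are the 425 higher and 284 lower genes past adjusted p 0.0001 and 2-fold. The genes counted lie across most of the range of expression, with a median difference of 3.41-fold on the higher and 2.62-fold on the lower side.

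Among genes with an average log2 CPM (counts scaled to library size) over 2 and TPM groups apart, the largest rise was that of INHBA, which encodes the subunit of activin A, a TGF-beta family ligand. It lies on chromosome 7, 41667168 to 41705834, minus strand. INHBA was at 0.19, 0.12 and 0.12 TPM in the controls and 6.15, 3.49 and 5.91 TPM in the sgEPCR cells, a log2 difference of 5.58 ± 0.21 (adjusted p = 8.6e-08). KLF2, a Krüppel-like factor known as a brake on NF-kB in myeloid and endothelial cells (chromosome 19, 16324826 to 16328685, plus strand), went from 4.64, 3.22 and 3.52 TPM to 143.14, 67.58 and 144.86 TPM. That is 40.1-fold after scaling (log2 5.33 ± 0.21, adjusted p = 8.8e-08), and the lowest edited library was far above the highest control. CSF1, the growth factor of macrophages (chromosome 1, 109910242 to 109930992, plus strand), was 0.75, 0.87 and 1.14 TPM in the controls and 38.08, 17.01 and 38.35 TPM in the edited cells (log2 5.28 ± 0.25, adjusted p = 2.1e-07). Groups apart in TPM and a low adjusted p were conditions for naming these 3 genes, so both hold by the choice.

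The start regions of leading genes are shown for their motifs. RefSeq promoter windows (GRCh38.p14, 250 bases before to 50 after the start) exist in the table used for INHBA (chr7:41703041-41703340, minus strand) and KLF2 (chr19:16324576-16324875, plus strand). DUSP8 (chr11:1572222-1572521, minus strand), another of the 10 largest rises, is shown for its 2 matches to the cAMP response element and was chosen after those were seen. Each is written 5′ to 3′ on the gene's strand, with a match in capitals, to TATAAA at -11 from the start in INHBA and to TGACGTCA at -118 and -74 in DUSP8.
INHBA: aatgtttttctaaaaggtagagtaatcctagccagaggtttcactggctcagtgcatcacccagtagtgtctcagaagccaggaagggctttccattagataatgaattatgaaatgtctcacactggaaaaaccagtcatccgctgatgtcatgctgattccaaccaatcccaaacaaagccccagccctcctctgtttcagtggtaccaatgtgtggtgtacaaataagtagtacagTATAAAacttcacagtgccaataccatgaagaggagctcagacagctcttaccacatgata
KLF2: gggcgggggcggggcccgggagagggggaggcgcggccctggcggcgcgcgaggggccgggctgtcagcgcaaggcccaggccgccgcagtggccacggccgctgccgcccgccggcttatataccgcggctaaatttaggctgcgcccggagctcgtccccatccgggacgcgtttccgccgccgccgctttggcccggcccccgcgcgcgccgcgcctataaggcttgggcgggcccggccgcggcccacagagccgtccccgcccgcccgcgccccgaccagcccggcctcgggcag
DUSP8: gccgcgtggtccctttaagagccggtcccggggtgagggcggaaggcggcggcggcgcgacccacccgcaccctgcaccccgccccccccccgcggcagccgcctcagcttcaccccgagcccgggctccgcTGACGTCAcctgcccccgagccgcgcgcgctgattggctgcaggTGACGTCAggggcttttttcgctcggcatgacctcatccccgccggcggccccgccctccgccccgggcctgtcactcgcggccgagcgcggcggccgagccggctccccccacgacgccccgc
Both strands were searched for these 2 motifs, for AP-1 and for NF-kB, read as GGGA and TTCC around any 2 bases. KLF2 had no match to any of the 4 in this window. Matches to AP-1, searched as TGANTCA, were present in 9.59% of 490 promoters of higher genes (305 genes matched by symbol), 6.71% of 313 promoters of lower genes (217 genes) and 5.33% of 15931 promoters of tested genes. TATA matches were present in 13.7%, 7.35% and 6.66% of the same sets, NF-kB matches in 2.86%, 1.92% and 1.5%, and cAMP response elements in 3.27%, 1.28% and 2.71%. Over all 35116 windows of the table the shares were 7.71% for AP-1, 11.5% for TATA, 1.61% for NF-kB and 1.85% for the cAMP response element.

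The other large rises fell in several classes of gene. A2M encodes alpha-2-macroglobulin, a secreted protease trap. It was 4.27, 2.73 and 5.45 TPM in the controls and 107.97, 74.8 and 104.29 TPM in the sgEPCR cells (log2 4.5 ± 0.25, adjusted p = 5.7e-07). OLR1, the scavenger receptor LOX-1 for oxidized LDL, was 5.62, 5.5 and 7.42 TPM against 111.92, 83.06 and 105.94 TPM (log2 4.31 ± 0.26, adjusted p = 9.3e-07). CPA3, the carboxypeptidase of mast cell granules, was 1.15, 0.59 and 1.21 TPM against 19.58, 22.91 and 20.37 TPM (log2 4.52 ± 0.34, adjusted p = 4e-06). CPA3 is a case where replicate 2 was the highest of the edited libraries even in TPM. FOSB, an AP-1 subunit, was 0.43, 0.37 and 0.86 TPM against 10.46, 4.42 and 10.12 TPM (log2 4.39 ± 0.20, adjusted p = 1.9e-07). DUSP8, a phosphatase of the stress-activated MAP kinases, was 1.15, 0.67 and 1.54 TPM against 12.74, 9.11 and 13.98 TPM (log2 3.82 ± 0.19, adjusted p = 2.8e-07). The 10 were completed by GCSAML (log2 3.88 ± 0.30) and KCNN3, a calcium-activated potassium channel (log2 3.73 ± 0.36), and the next gene, MAP1A, stood at 3.68.

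The largest falls under the same limits were smaller in size. GPR141, an orphan G protein-coupled receptor, was 15.53, 16.26 and 13.56 TPM in the controls and 1.33, 0.48 and 1.45 TPM in the sgEPCR cells, 15.2-fold lower (log2 -3.93 ± 0.29, adjusted p = 3e-06). LPL, lipoprotein lipase, was 6.19, 5.13 and 4.29 TPM against 0.38, 0.22 and 0.69 TPM (log2 -3.71 ± 0.19, adjusted p = 4.4e-07). Both genes were also lower in the edited cells in DMSO, by -1.64 and -5.41 on the log2 scale. BCL11A, a repressor of fetal globin genes that also acts in lymphoid and stem cells, was 27.65, 30.17 and 28.51 TPM against 5.02, 4.49 and 4.29 TPM (log2 -2.62 ± 0.20, adjusted p = 4.8e-06). MPO, the myeloperoxidase of neutrophil granules, was 4.63, 5.78 and 5.35 TPM against 0.99, 0.48 and 0.74 TPM (log2 -2.58 ± 0.12, adjusted p = 2.1e-07). For BCL11A and MPO the gap ran the other way in DMSO, where the edited cells were higher by 1.44 and 1.8. CACNA2D3, an auxiliary calcium channel subunit, NEURL1B, a ubiquitin ligase of the Notch pathway, PLD6, a mitochondrial phospholipase, the noncoding RNA EMSLR and RGL4 were lower by log2 differences of -2.97, -2.87, -2.58, -2.55 and -2.39, PROCR itself was among the 10, and SLC26A9 followed at -2.37.

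**Figure D2:**
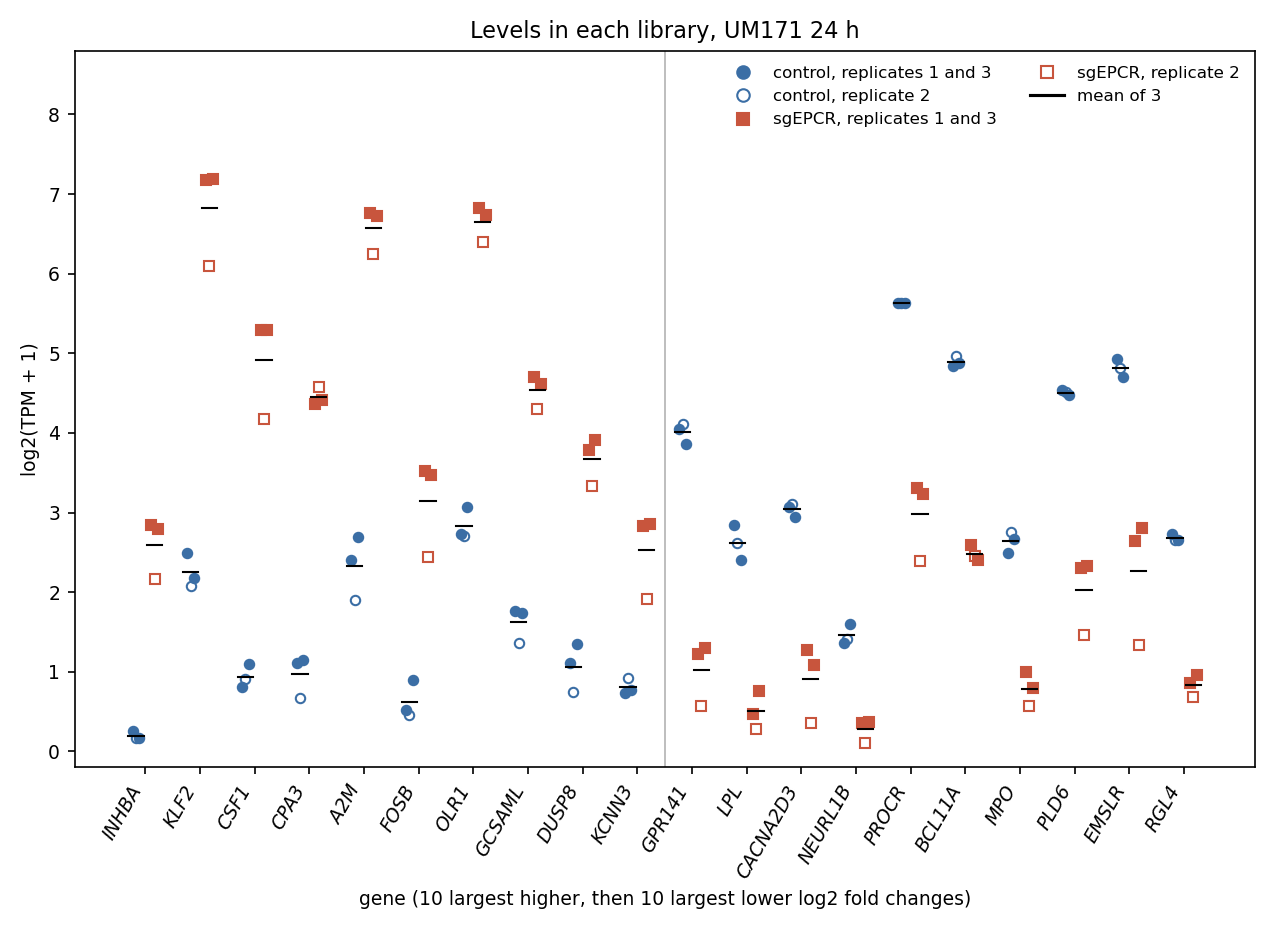
Log2(TPM + 1) of the 10 genes with the largest higher and the 10 with the largest lower fold change, by library, with control libraries as circles, sgEPCR libraries as squares, replicate 2 of each group open, and bars at the mean of 3 libraries. The rule that chose these 20 genes required the groups to lie apart in TPM. Replicate 2 is the lowest of the sgEPCR libraries in all but CPA3 and BCL11A.

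Genes around EPCR in the protein C and coagulation system were higher more often than lower. Of 20 tested members of this list of 29 names, 10 were higher, A2M among them, and 3 lower, PROCR included, at an adjusted p under 0.05, with a median log2 difference of 0.56 beside -0.02 over all tested genes. A member that passed the filter on low counts only through its level in the edited cells had to be higher. PLAUR, the urokinase receptor, was 47.74, 45.18 and 53.92 TPM in the controls and 151.78, 110.21 and 152.13 TPM in the edited cells (log2 1.52 ± 0.09, adjusted p = 7.1e-07). The 4 further members below are given after their values were seen. All 4 are among the 10 higher members, so they do not stand for the whole list. The lower members besides PROCR are not reported here. THBD, thrombomodulin, differed by 1.08 ± 0.08 (adjusted p = 3.7e-06), PROS1, the cofactor protein S, by 1.41 ± 0.12 (adjusted p = 6.4e-06) and F3, tissue factor, by 1.65 ± 0.19 (adjusted p = 7e-05). F5, factor V, was 5.04, 4.43 and 4.95 TPM against 30.51, 30.86 and 30.05 TPM (log2 3.14 ± 0.41, adjusted p = 0.00014). The most abundant members that missed the threshold were SERPINB2 (-0.26 ± 0.14, adjusted p = 0.15) and TYRO3 (-0.54 ± 0.30, adjusted p = 0.16).

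NF-kB regulators were higher more often than lower. Of 33 tested members 17 were higher and 4 lower, with a median of 0.52. TNFAIP3 (A20), a ubiquitin-editing enzyme that switches NF-kB off, was 2.58, 3.06 and 3.67 TPM in the controls and 10.64, 9.49 and 14.0 TPM in the sgEPCR cells (log2 2.03 ± 0.12, adjusted p = 6.8e-07). NFKBIZ, a nuclear IkB protein, was 3.73, 3.69 and 4.55 TPM against 9.85, 7.14 and 12.17 TPM (log2 1.76 ± 0.13, adjusted p = 3.1e-06). NFKBIA, the classical inhibitor, rose less, from 22.62, 23.76 and 23.13 TPM to 43.56, 26.4 and 45.38 TPM (log2 0.86 ± 0.07, adjusted p = 6.7e-06), and BIRC3, a ubiquitin ligase of the TNF receptor complex, differed by 3.37 ± 0.30 (adjusted p = 1.1e-05). The kinase subunit IKBKB (0.06 ± 0.16) and TNIP1 (-0.09 ± 0.14) were not past the threshold, at adjusted p values of 0.78 and 0.63. In limma on log2(TPM + 1) 6 members were higher and 0 lower, and without sgEPCR replicate 2 the counts were again 17 and 4.

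AP-1 and immediate early factors, the transcription factors that respond fastest to stimuli, had the larger median. Of 28 tested members 18 were higher and 4 lower, with a median log2 difference of 1.24, and 12 were past the strict limits on the higher side with 0 on the lower. KLF6 went from 13.54, 14.31 and 13.44 TPM to 77.87, 43.64 and 80.23 TPM (log2 2.53 ± 0.09, adjusted p = 7.9e-08). BHLHE40, a stress-responsive repressor, went from 11.96, 10.8 and 14.93 TPM to 68.32, 34.09 and 69.07 TPM (log2 2.36 ± 0.10, adjusted p = 1.7e-07). KLF2 and FOSB, given above, belong to the same list. Not all did so: JUNB differed by 0.37 ± 0.17 (adjusted p = 0.099) and IER2 by 0.11 ± 0.38 (adjusted p = 0.83), with replicate 2 below and replicates 1 and 3 above the controls in TPM for both. In limma on log2(TPM + 1) 14 members were higher and 0 lower.

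Cytokines and chemokines followed, with 15 of 30 tested members higher, 6 lower and a median of 0.52 (51 names in the list). The other names failed the filter on low counts, and a member that passed only through its level in the edited cells had to be higher. IL1B, the inflammasome-processed cytokine, was 32.95, 31.46 and 39.84 TPM in the controls and 89.12, 46.95 and 90.25 TPM in the edited cells (log2 1.27 ± 0.11, adjusted p = 7.2e-06). Its receptor antagonist IL1RN was more abundant and moved by as much, from 139.22, 142.98 and 164.14 TPM to 371.36, 185.63 and 374.2 TPM (log2 1.27 ± 0.09, adjusted p = 2.1e-06). CCL4, a chemokine for monocytes and T cells, held 4, 1 and 4 counts in the controls and 208, 162 and 238 in the edited cells (log2 6.27 ± 0.49, adjusted p = 4.9e-06), and its fitted fold change rests on those few control counts. The most abundant member, CXCL8, the neutrophil chemokine, was at 712.9, 653.7 and 824.56 TPM against 898.29, 499.01 and 872.81 TPM and missed the threshold (0.25 ± 0.11, adjusted p = 0.077), as did TGFB1 (-0.06 ± 0.11, adjusted p = 0.70). The Hallmark TNFA signaling via NFKB list, taken from the study's supplement, had 108 of 171 tested members higher and 22 lower, with a median of 0.76. RHOB, a small GTPase of that list, went from 8.34, 9.42 and 10.78 TPM to 127.22, 65.53 and 127.4 TPM (log2 3.68 ± 0.10, adjusted p = 2.5e-08). The Hallmark inflammatory response list had 58 of 135 higher and 27 lower, with a median of 0.28. Both lists were reported on from these same libraries and are not independent of them. In limma on log2(TPM + 1) the inflammatory list had 16 higher, 14 lower and a median of -0.05 beside -0.23 over all genes.

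Receptors for cytokines and growth factors showed no lean, with 11 of 40 higher, 11 lower and a median of -0.01. IL3RA, the IL-3 receptor chain found on leukaemic stem cells, was 15.98, 15.86 and 16.32 TPM against 52.24, 22.64 and 52.38 TPM (log2 1.51 ± 0.15, adjusted p = 2.5e-05). IL18R1 was lower, at 6.95, 7.67 and 5.67 TPM against 2.54, 1.4 and 1.83 TPM (log2 -1.75 ± 0.14, adjusted p = 6.3e-06). LTBR, the lymphotoxin receptor that feeds noncanonical NF-kB, held 67, 87 and 43 counts in the controls and 3, 0 and 1 in the edited cells (adjusted p = 2.6e-05). CCR7, the homing receptor of dendritic and T cells, was the reverse, with 1, 7 and 3 counts against 111, 37 and 110 (adjusted p = 1.8e-05). Among 16 eicosanoid genes 5 were higher and 3 lower. Both cyclooxygenases were higher, PTGS1 from 27.26, 25.87 and 28.43 TPM to 72.11, 34.71 and 73.23 TPM (log2 1.37 ± 0.11, adjusted p = 5.9e-06) and PTGS2 by 1.92 ± 0.16 (adjusted p = 6e-06), while thromboxane synthase, TBXAS1, fell by 2.95 on the log2 scale (adjusted p = 4.3e-06).

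Surface molecules of antigen-presenting cells were called in both directions. Of 19 costimulatory and checkpoint ligands 8 were higher and 4 lower, with a median of 0.57. CD83, a marker of activated dendritic cells, was 12.46, 12.31 and 13.2 TPM in the controls and 65.66, 32.62 and 65.9 TPM in the edited cells (log2 2.27 ± 0.07, adjusted p = 4.5e-08). SLAMF1, SLAMF7 and HAVCR2 (TIM-3), receptors of immune cells, differed by 2.65 ± 0.14, 1.82 ± 0.14 and 2.24 ± 0.17. CD86, a ligand of CD28 that is named here after its values were seen, was lower (log2 -0.81 ± 0.16, adjusted p = 0.0021). MHC class II genes were 0 higher and 9 lower of 14, with a median of -0.55, and 0 higher and 1 lower in limma on log2(TPM + 1). HLA-DPA1 was 90.93, 93.33 and 91.46 TPM against 59.16, 21.27 and 58.08 TPM (log2 -0.80 ± 0.10, adjusted p = 0.00013), and the peptide exchanger HLA-DMB differed by -1.39 ± 0.15 (adjusted p = 4.7e-05), while the invariant chain CD74 did not pass (-0.08 ± 0.11, adjusted p = 0.56). HLA genes are similar in sequence, and estimated counts may split reads between them. Of 21 class I and peptide-loading genes 1 was higher and 7 lower, among them the transporter TAP2 (-0.54 ± 0.06, adjusted p = 3e-05), and 0 higher and 1 lower in the limma fit.

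Interferon-stimulated genes leaned lower, 5 higher and 15 lower of 37, with a median of -0.52. IFIT1, an antiviral RNA sensor, was 3.01, 2.76 and 2.13 TPM in the controls and 0.48, 0.2 and 0.59 TPM in the edited cells (log2 -2.43 ± 0.23, adjusted p = 1.8e-05). GBP2 and IRF9 went the other way, by 1.51 ± 0.13 and 1.21 ± 0.11. Members of this list were thus called in both directions.

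Feedback genes of other pathways were mixed. Of 15 ERK feedback genes 8 were higher and 5 lower, with the phosphatase DUSP16 at 2.97 ± 0.13 (adjusted p = 1.8e-07) and the inhibitor SPRY1 at -1.54 ± 0.10 (adjusted p = 1.2e-06). SOCS feedback genes and PIM kinases were 6 higher and 2 lower of 19, and 0 and 0 in limma on log2(TPM + 1). Among 23 genes of cAMP signalling 6 were higher and 4 lower, near the shares of all tested genes, 20.8% and 22.2%. In the limma fit 2 were higher and 2 lower of 21. The phosphodiesterases PDE4B and PDE7B were lower by log2 differences of -1.33 and -1.39, and RGS1, a brake on G protein signalling, was higher by 2.59. Genes against peroxides, with the glutathione and thioredoxin systems, were 5 higher and 17 lower of 44, with a median of -0.36. GSR, glutathione reductase, was 58.66, 64.2 and 61.43 TPM in the controls and 38.19, 19.93 and 36.86 TPM in the edited cells (log2 -0.83 ± 0.07, adjusted p = 5.8e-06). PRDX4, a peroxiredoxin of the endoplasmic reticulum, fell by 0.67 on the log2 scale (adjusted p = 4.3e-05), whereas GPX1 (-0.25 ± 0.34) and TXN (0.02 ± 0.21) were not past the threshold. In limma on log2(TPM + 1) 3 of the 44 were lower and 2 higher.

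**Figure D3:**
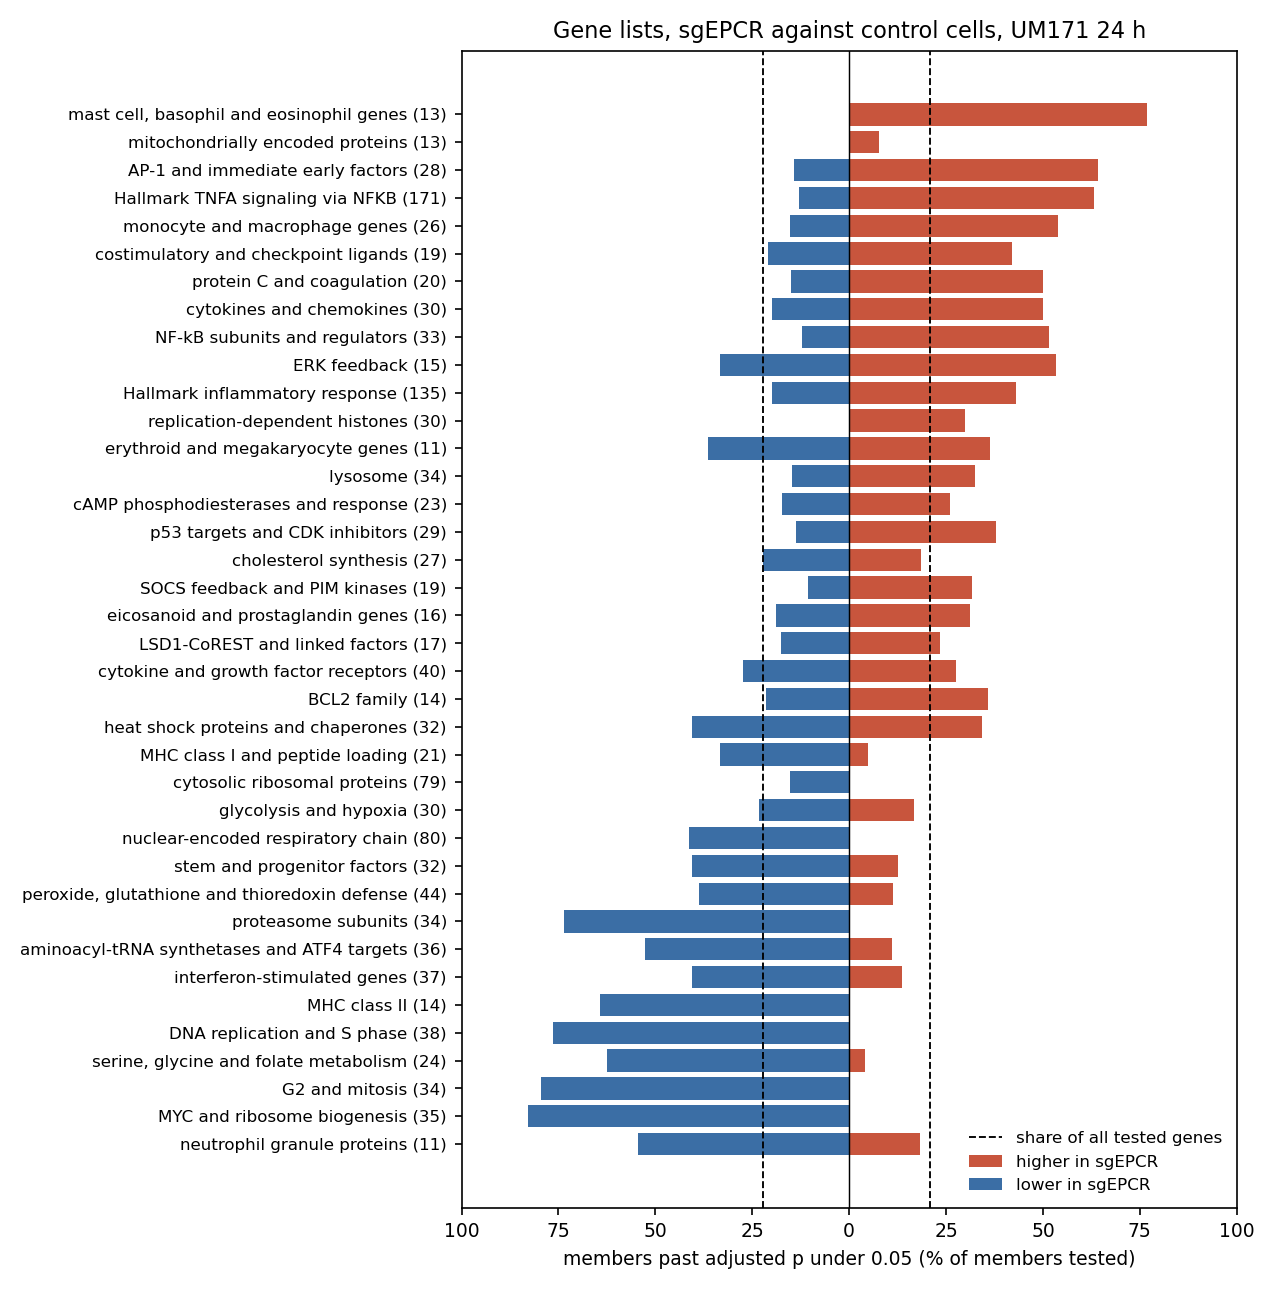
Share of the tested members of each gene list (number in brackets) that were higher (right) or lower (left) in sgEPCR cells at an adjusted p under 0.05, with dashed lines at the shares of all tested genes, 20.8% higher and 22.2% lower. Mast cell, immediate early and TNFA signaling genes reach furthest to the right, and MYC and ribosome biogenesis, G2 and mitosis, S phase and proteasome genes furthest to the left.

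Genes of growth and division were lower in the edited cells. Of 35 tested genes in the MYC and ribosome biogenesis list 0 were higher and 29 lower, with a median log2 difference of -0.91. MYC itself, the transcription factor that drives ribosome production, was 302.53, 300.78 and 311.05 TPM in the controls and 121.21, 50.72 and 123.78 TPM in the sgEPCR cells, 2.76-fold lower after scaling (log2 -1.46 ± 0.09, adjusted p = 1.5e-06). DKC1, the pseudouridine synthase of ribosomal RNA and telomerase, was 177.75, 178.16 and 187.57 TPM against 76.22, 45.75 and 72.59 TPM (log2 -1.30 ± 0.08, adjusted p = 9.3e-07). POLR1B, a subunit of RNA polymerase I, and the nucleolar protein NOP16 differed by -1.58 ± 0.10 and -1.50 ± 0.09. The most abundant members, LDHA (-0.17 ± 0.16) and NCL (-0.37 ± 0.28), did not pass. In limma on log2(TPM + 1) 15 were lower and 0 higher, and without sgEPCR replicate 2 there were 31 lower and 1 higher.

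Cell cycle genes were lower too. G2 and mitosis genes were 0 higher and 27 lower of 34 (median -0.82), and DNA replication and S phase genes 0 higher and 29 lower of 38 (median -0.58). CCNB1, the cyclin of mitotic entry, was 188.92, 191.86 and 179.75 TPM in the controls and 79.88, 34.14 and 78.51 TPM in the edited cells (log2 -1.32 ± 0.07, adjusted p = 4.6e-07). PLK1, a mitotic kinase, was 149.55, 149.65 and 150.75 TPM against 69.49, 58.72 and 68.21 TPM (log2 -1.23 ± 0.06, adjusted p = 3.8e-07). In S phase genes, RRM1, which makes deoxynucleotides, and MCM6, part of the replicative helicase, differed by -0.84 ± 0.06 and -0.91 ± 0.07, while POLD1 (-0.55 ± 0.37) and RFC4 (0.09 ± 0.23) did not pass. On the TPM scale in limma 15 G2 and mitosis genes and 4 S phase genes were lower, with 0 higher in either list.

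Genes of biosynthesis, protein turnover and respiration were lower more often than higher. Serine, glycine and folate genes were 1 higher and 15 lower of 24 (median -0.58), led by PSAT1, a serine synthesis enzyme, at 196.36, 195.3 and 204.68 TPM against 84.6, 48.32 and 82.91 TPM (log2 -1.27 ± 0.07, adjusted p = 6.1e-07). Aminoacyl-tRNA synthetases and ATF4 targets were 4 higher and 19 lower of 36 (median -0.42), and among the higher was DDIT3 (CHOP), a stress factor, at 7.09, 5.6 and 7.38 TPM against 31.38, 15.51 and 29.3 TPM (log2 2.08 ± 0.11, adjusted p = 4.4e-07). Proteasome subunits were 0 higher and 25 lower of 34 (median -0.41), of which PSMA6 fell by 0.70 on the log2 scale (adjusted p = 1.6e-05). Nuclear-encoded respiratory chain genes were 0 higher and 33 lower of 80 (median -0.33), and cytosolic ribosomal proteins 0 higher and 12 lower of 79 (median -0.20), a share below that of all genes. These calls depended on the scale. In limma on log2(TPM + 1) 4 serine, glycine and folate genes, 4 aminoacyl-tRNA and ATF4 genes, 1 proteasome gene, 0 respiratory chain genes and 1 ribosomal protein gene were lower. The 13 mitochondrially encoded protein genes had 1 higher and a median of 1.58, and 0.10 without sgEPCR replicate 2, in which their counts were raised.

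Chaperone genes were called in both directions. Of 32 heat shock and chaperone genes 11 were higher and 13 lower. HSPA5 (BiP), the chaperone of the endoplasmic reticulum, was 302.51, 291.35 and 280.26 TPM in the controls and 697.01, 371.05 and 695.27 TPM in the sgEPCR cells (log2 1.21 ± 0.07, adjusted p = 5.6e-07). HERPUD1 and DNAJB9, which act with it in the disposal of misfolded proteins, differed by 2.07 ± 0.07 and 1.41 ± 0.09. HSPA1A, the inducible HSP70, was 30.7, 28.72 and 28.04 TPM against 320.05, 217.92 and 331.42 TPM (log2 3.43 ± 0.13, adjusted p = 8.8e-08), and shares reads with its near copy HSPA1B, so its own value is uncertain. The constitutive HSPA8 and HSP90AA1 did not pass (-0.16 ± 0.16 and 0.11 ± 0.12). Lysosome genes were 11 higher and 5 lower of 34, with the tetraspanin CD63 at 0.64 ± 0.08. Glycolysis and hypoxia genes were 5 higher and 7 lower of 30, among them the hexokinase HK2 at 60.49, 60.98 and 64.87 TPM against 19.96, 9.44 and 21.2 TPM (log2 -1.73 ± 0.09, adjusted p = 5.2e-07).

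Genes of survival and arrest were called in both directions. Of 29 p53 targets and CDK inhibitors 11 were higher and 4 lower, with the antiproliferative BTG2 at 27.32, 27.22 and 34.38 TPM against 119.22, 56.85 and 121.23 TPM (log2 1.94 ± 0.10, adjusted p = 3.8e-07). CDKN2A was listed at 0 counts in all 3 edited libraries and held 40, 68 and 45 counts in the controls, at least 45.3-fold lower against a floor of 3 counts over the group. Of 14 BCL2 family genes 5 were higher and 3 lower. BCL2A1, an NF-kB target that blocks apoptosis, was 4.05, 4.34 and 5.09 TPM against 14.9, 11.88 and 14.62 TPM (log2 1.90 ± 0.20, adjusted p = 3.1e-05), MCL1 differed by 0.35 ± 0.07 and BCL2 by -0.53 ± 0.08, the last with replicate 2 above the controls in TPM.

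Lineage genes differed by lineage. Of 13 tested mast cell, basophil and eosinophil genes 10 were higher and 0 lower, with a median of 2.15. HDC, the enzyme that makes histamine, was 0.41, 0.38 and 0.82 TPM in the controls and 11.96, 4.6 and 11.96 TPM in the sgEPCR cells (log2 4.18 ± 0.28, adjusted p = 1.9e-06). PRG2, the major basic protein of eosinophil granules, was 4.6, 2.83 and 4.6 TPM against 41.72, 27.98 and 40.72 TPM (log2 3.44 ± 0.22, adjusted p = 1.4e-06), and the basophil surface enzyme ENPP3 differed by 2.58 ± 0.16. The lineage factor GATA2 (0.07 ± 0.20) and the tryptase TPSAB1 (0.02 ± 0.16) were not past the threshold, at adjusted p values of 0.81 and 0.92. Of the 23 names of this list 13 passed the filter on low counts, and a gene that passed only through its level in the edited cells had to be higher.

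Monocyte and macrophage genes were 14 higher and 4 lower of 26 tested among 41 names (median 0.72). The limit of the filter given for the mast cell list holds for this list too. TREM1, an amplifier of inflammatory signals, was 2.9, 2.32 and 2.45 TPM in the controls and 19.24, 11.61 and 20.11 TPM in the edited cells (log2 2.99 ± 0.16, adjusted p = 4.6e-07). ANXA1, a mediator of resolution, was 277.68, 265.21 and 272.86 TPM against 910.06, 468.39 and 890.68 TPM (log2 1.64 ± 0.06, adjusted p = 8.8e-08). Neutrophil granule genes were 2 higher and 6 lower of 11 tested among 22 names, with CTSG and BPI at -1.17 ± 0.20 and -1.26 ± 0.16 beside MPO. Stem and progenitor factors were 4 higher and 13 lower of 32 (median -0.33), including HOXA10 at 17.48, 16.79 and 16.15 TPM against 10.12, 4.79 and 9.9 TPM (log2 -0.82 ± 0.08, adjusted p = 2.5e-05), while MYB (-0.32 ± 0.23) and SPI1 (0.16 ± 0.14) did not pass. Of 11 erythroid and megakaryocyte genes tested among 31 names 4 were higher and 4 lower, with the lineage factor TAL1 at -1.99 ± 0.09 and the platelet integrin ITGB3 at 2.91 ± 0.35. Transcripts of other cell types moved too: the T cell genes TRAC and CD3D were higher (1.23 ± 0.15 and 1.03 ± 0.30) and the B cell gene CD79A lower (-1.26 ± 0.11), with the summed T cell markers at 25.2 to 37.1 TPM in the controls and 35.4 to 71.4 TPM in the edited cells and the summed B cell markers at 30.9 to 34.1 and 7.38 to 17.7 TPM. CD3E and CD3G were at or near 0 in all 6 libraries, and the part of other cells in these values was not tested.

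Without sgEPCR replicate 2 the counts higher and lower were 21 and 4 for AP-1 and immediate early factors, 16 and 8 for cytokines and chemokines, 11 and 4 for costimulatory ligands and 114 and 28 for TNFA signaling. They were 0 and 8 for MHC class II, 7 and 16 for interferon-stimulated genes, 7 and 20 for peroxide defense and 0 and 32 for G2 and mitosis. They were 10 and 1 of 15 tested for mast cell, basophil and eosinophil genes, 14 and 4 for monocyte and macrophage genes, and 16 and 6 for lysosome genes. They were 7 and 4 of 13 tested for erythroid and megakaryocyte genes, 3 and 7 for class I and peptide loading, and 5 and 5 for eicosanoid genes. Several medians moved with that library. Without it the median was 1.43 for mast cell, basophil and eosinophil genes, 0.45 for monocyte and macrophage genes, -0.62 for neutrophil granule genes and -0.21 for stem and progenitor factors. It was 1.26 in place of 0.22 for erythroid and megakaryocyte genes.

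Fewer members were called in most lists by limma on log2(TPM + 1), where 656 of all 15845 tested genes were higher and 1077 lower. The counts higher and lower were 7 and 2 for protein C and coagulation, 8 and 5 for cytokines, 6 and 2 for costimulatory ligands, 41 and 9 for TNFA signaling and 2 and 9 for interferon-stimulated genes. They were 5 and 4 for receptors, 2 and 1 for ERK feedback, 3 and 2 for p53 targets and CDK inhibitors, 1 and 0 for the BCL2 family, 6 and 1 for chaperones and 2 and 0 for lysosome genes. For lineage genes they were 7 and 0 for mast cell, basophil and eosinophil genes, 9 and 1 for monocyte and macrophage genes, 0 and 5 for neutrophil granule genes, 0 and 8 for stem and progenitor factors and 1 and 1 for erythroid and megakaryocyte genes.

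UM171 is known to act by loss of the LSD1-CoREST complex, which silences genes by removing histone marks. The genes of that complex and its linked factors were 4 higher and 3 lower of 17 (median 0.06). KDM1A, which encodes LSD1, was 97.18, 95.56 and 95.73 TPM in the controls and 56.77, 28.29 and 55.9 TPM in the edited cells (log2 -0.86 ± 0.06, adjusted p = 3.5e-06). HDAC2 fell by 0.56 on the log2 scale (adjusted p = 0.0028), and RCOR3 and REST rose by 0.71 and 0.55. CUL3, the scaffold of the ubiquitin ligase through which UM171 works, did not pass (-0.14 ± 0.15, adjusted p = 0.47).

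The gap between the genotypes was then set beside the same gap in DMSO, which shares no library with it. In DMSO 452 genes (2.84%) passed the strict limits, and 33.7% of all genes passed an adjusted p of 0.05, 17.4% higher and 16.3% lower. Of the 425 genes higher in UM171, 6 were also higher and 42 were lower in DMSO at the strict limits (9.88% of the 425, 18.8% of the 224 lower in DMSO). Of the 284 lower in UM171, 22 were higher and 10 lower in DMSO. The difference between the gaps passed the strict limits for 1236 genes (7.77%, with 3.6% above and 4.17% below 0) and an adjusted p of 0.05 for 45% of all genes, and it was in the direction of the UM171 difference at an adjusted p under 0.05 for 406 of the 425 and 266 of the 284, counts that include the contrast by which those genes were chosen. The control cells in DMSO are labelled 72 h and the sgEPCR cells 24 h, so in DMSO genotype and time in culture cannot be told apart.

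Several lists lay on opposite sides of 0 in the 2 media. S phase genes were 30 higher and 0 lower of 38 in DMSO against 0 and 29 in UM171, and G2 and mitosis genes 30 and 0 of 34 against 0 and 27. The DMSO counts depended on the scale. In limma on log2(TPM + 1) 0 members of either list were called in DMSO, with medians of 0.22 and 0.18. With total count scaling 10 and 12 were higher there. The DMSO libraries include sgEPCR replicate 1, with 35.9% mitochondrial counts. Without it and sgEPCR replicate 2 in UM171, 37 and 34 were higher in DMSO. Proteasome subunits were 28 higher and 0 lower in DMSO, and respiratory chain genes 48 higher and 0 lower. NF-kB regulators were 0 higher and 6 lower of 33 in DMSO, a share near the 16.3% of all genes. AP-1 and immediate early factors were 3 higher and 8 lower of 28 there, Hallmark TNFA signaling genes 21 and 47 of 171, and monocyte genes 3 and 17 of 26. SLAMF7 shows the pattern in a single gene, with a log2 difference of -4.49 in DMSO and 1.82 in UM171. MHC class II genes were lower in both, 9 of 14 in each, and the MYC and ribosome biogenesis list was near level in DMSO, with 8 higher and 7 lower of 35.

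**Figure D4:**
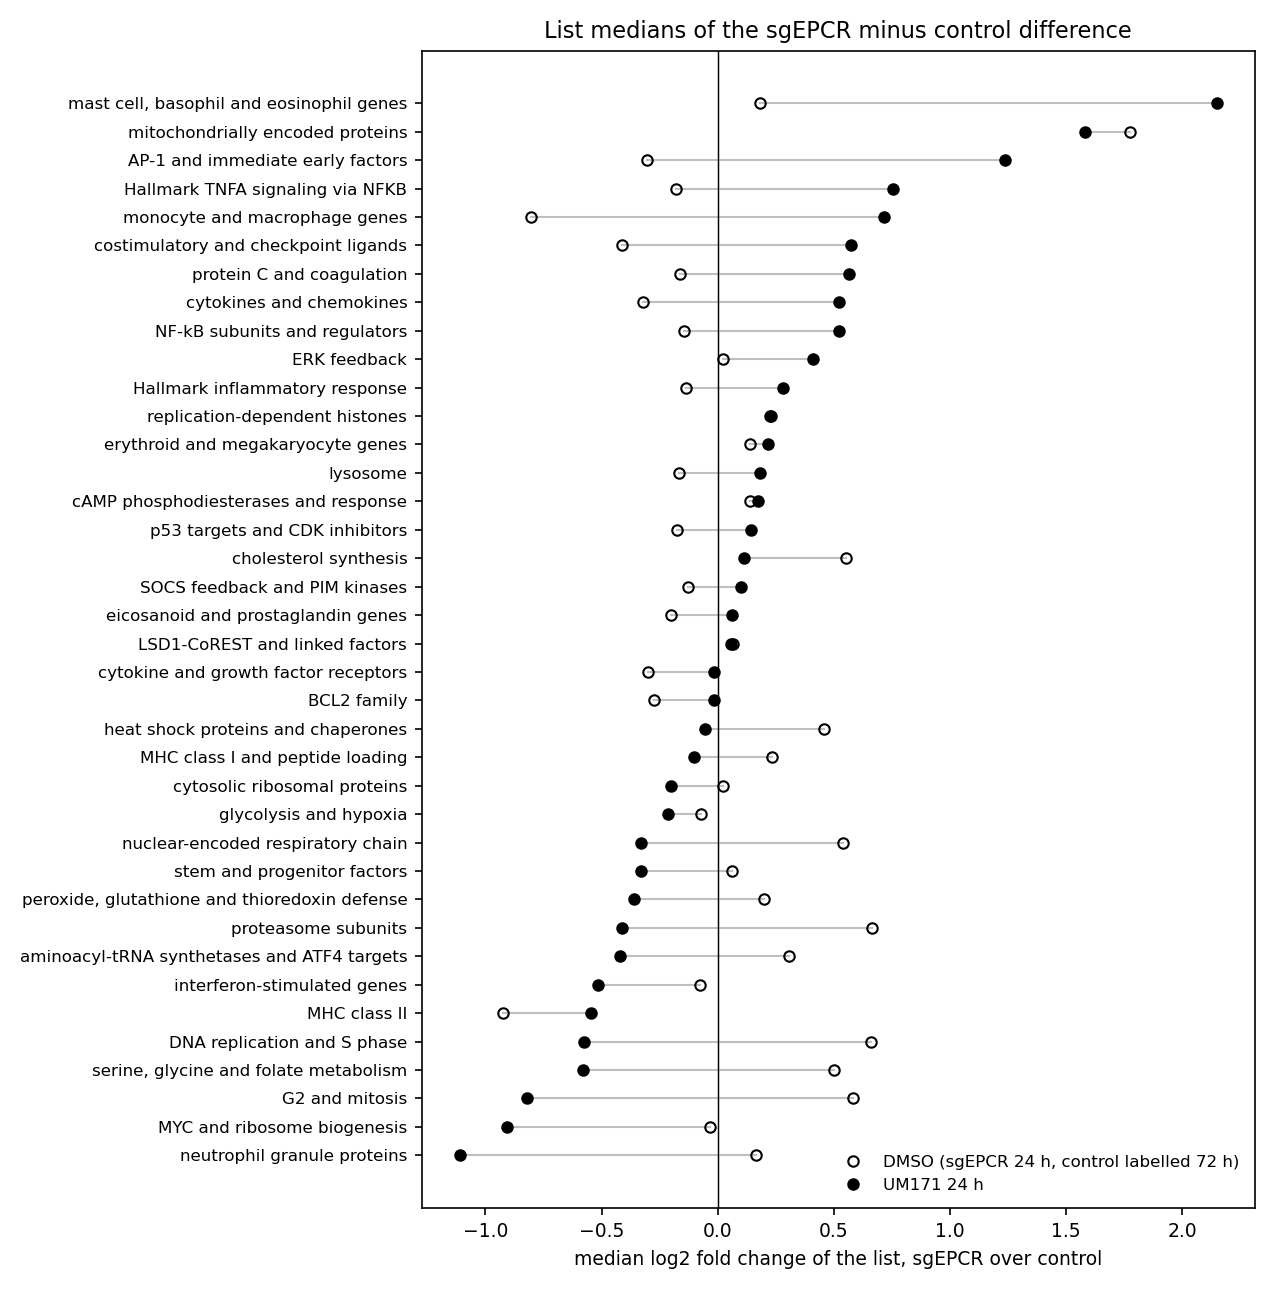
Median log2 fold change (sgEPCR over control) of each gene list in UM171 (filled) and in DMSO (open, with sgEPCR cells labelled 24 h and control cells 72 h), joined by a line. S phase, G2 and mitosis, proteasome and respiratory chain medians are above 0 in DMSO and below 0 in UM171, and those of the NF-kB, immediate early, cytokine and monocyte lists are the reverse.

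The leading genes can also be placed in the control time course in UM171, whose 6, 48 and 72 h libraries enter none of the tests above. Mean PROCR in control cells was 11.8 TPM at 6 h, 41.1 TPM at 48 h and 29.7 TPM at 72 h. CSF1 reached 7.66 TPM at 48 h and 16.0 TPM at 72 h in controls, and CPA3 15.6 and 26.6 TPM, the latter above the 22.91 TPM of the highest edited library at 24 h. KLF2 (9.0 and 18.6 TPM) and INHBA (0.827 and 1.05 TPM) stayed below the lowest edited library at both times. Among the genes with the largest falls, GPR141 was 8.69 and 9.62 TPM and LPL 6.47 and 5.43 TPM, all above the highest edited library.

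**Figure D5:**
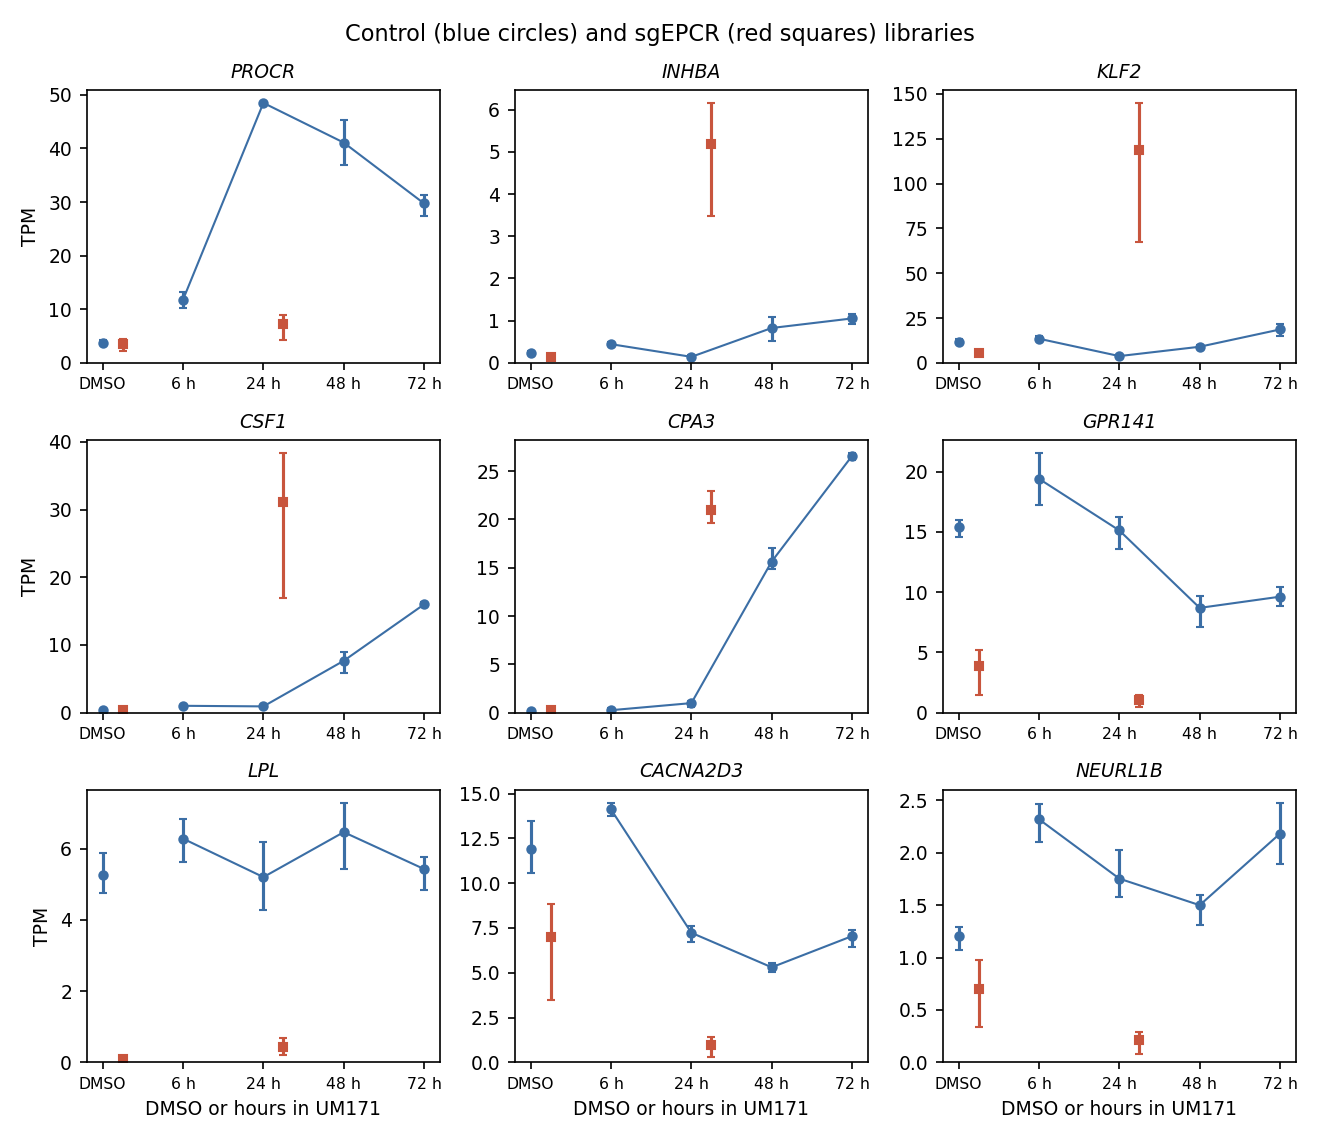
Mean TPM of 9 genes in control cells in DMSO and after 6, 24, 48 and 72 h in UM171 and in sgEPCR cells in DMSO and after 24 h in UM171, with bars from the lowest to the highest of 3 libraries. KLF2 and INHBA in edited cells at 24 h lie above every control point, while CPA3 in control cells at 72 h, at 26.6 TPM, lies above the edited cells.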

How the data were processed

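The authors deposited, for each library, RSEM estimated counts per gene without normalization (expected counts) and TPM, from stranded poly(A) libraries of OCI-AML5 RNA. The submitters' processing notes name CASAVA 1.8.2, Trimmomatic 0.35, STAR 2.5.1b and RSEM 1.2.28 with GRCh38, whereas the study's methods name kallisto and sleuth; the annotation of the deposited values is not given in the sources used here. RSEM splits reads shared between similar genes, so HLA, histone and HSPA1A values are uncertain, and TPM falls for most genes where mitochondrial reads take more of a library. The floor of 3 counts covers counting error only, while the SE comes from the fit and includes the spread between libraries.

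Estimated counts were rounded and fitted with edgeR 4.0.16 in R 4.3.3 (filterByExpr, TMM, glmQLFit and glmQLFTest) over 12 libraries: both genotypes in UM171 for 24 h and in DMSO, 3 libraries each. Adjusted p values are Benjamini-Hochberg over all 15901 tested genes, the SE is the absolute log2 difference divided by the square root of F, and the difference of the gaps is an interaction contrast. Genes were counted past an adjusted p of 0.0001 and 2-fold, and list members at an adjusted p under 0.05. Alternatives used DESeq2 1.42.0, limma 3.58.1 on log2(TPM + 1) or log2(TPM + 0.1), other scalings and filters, offsets for GC content, a replicate block and leaving out libraries. On simulated data for this comparison, with 15503 genes tested, edgeR recovered 72 of 100 genes changed 2-fold and 100 of 100 changed 4-fold. Recovery meant an adjusted p under 0.05 in the right direction with no fold limit, and 15 other genes were called so. Recovery at the strict limits was not tested. Apart from the changed genes the simulated libraries shared a mean profile, with none like sgEPCR replicate 2.

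Named genes are PROCR, the 10 largest differences in each direction among genes past both limits with an average log2 CPM over 2 and TPM groups apart, and in each list up to 4 members with the lowest adjusted p and up to 2 abundant members not called; genes of the Y chromosome and XIST were left out. Genes outside this rule are named as such. Some genes that the rule picks are not reported here. The comparison, the lists and this rule were chosen with earlier results of these data known; the 2 Hallmark lists are names from the study's supplement. Coordinates are from GENCODE annotation of GRCh38 matched by gene identifier, promoters from RefSeq on GRCh38.p14. Replicate numbers did not pair the libraries: correlations of same-numbered deviations from the group means were -0.103, 0.021 and 0.104 between the 2 groups compared. Between the sgEPCR groups in DMSO and UM171 they were -0.609, -0.604 and 0.448. The 2 libraries of high mitochondrial share, replicate 1 in DMSO and replicate 2 in UM171, correlated at 0.688. Replicates 1 and 3 of the sgEPCR group were the closest pair, with a chi-square of 1.63 per degree of freedom over genes beside 3.50 to 7.63 for control pairs and 520 and 574 for the pairs with replicate 2, and were kept as separate libraries. Over genes with whole counts it was 1.26 for replicates 1 and 3, where counting error alone gives about 1, beside 2.61 to 5.91 for control pairs. The labels do not say whether replicates 1 and 3 are independent, and this was not tested. Figures used Python 3.11.15 and matplotlib 3.10.9.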

Additional observations from a re-analysis of the deposited data

Results flagged for a closer look

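For 14 of the genes with the largest differences, the gap between sgEPCR and control cells itself differed between UM171 and DMSO past an adjusted p of 0.0001 and 2-fold (interaction contrast in edgeR). Among all 15901 tested genes 1236 (7.77%) passed these limits. The 14 were chosen by their UM171 difference, which is a part of this contrast, so a value in the same direction is favoured by the choice. The difference of the gaps (UM171 minus DMSO, log2) was above 0 for INHBA (6.11), KLF2 (5.81), OLR1 (5.71), CSF1 (4.70), FOSB (4.63), DUSP8 (3.76) and A2M (3.50). It was below 0 for MPO (-4.38), BCL11A (-4.05), PROCR (-3.06), NEURL1B (-2.47), CACNA2D3 (-2.46), PLD6 (-1.83) and RGL4 (-1.37). The control libraries in DMSO are labelled 72 h and the other groups 24 h, and the part of time in these values was not tested. With 3 libraries a group, single genes were not tested for an outlying library.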

How the results depend on the processing

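The 709 genes past both limits (425 higher, 284 lower) became 1484 (939 and 545) with DESeq2, 1108 with an offset for GC content (477 lower), 296 (180 and 116) with total count scaling, 42 (35 and 7) with limma on log2(TPM + 1), 9 (6 and 3) with a pseudocount of 0.1 and 35 (27 and 8) without a filter. The 6 libraries fitted alone gave 1 (1 higher, 0 lower), with 5811 past an adjusted p of 0.05 and 7472 past an unadjusted p of 0.05 in edgeR, 3617 of them lower. A replicate block gave 313 (186 and 127), and with the 6 libraries alone 0 (0 and 0), where 4083 passed an adjusted p of 0.05 and 6699 an unadjusted p of 0.05; the numbers do not pair the libraries. Leaving out 1 library gave 319 to 842 (177 to 521 higher, 142 to 321 lower): 348, 319 and 431 without control replicate 1, 2 or 3, and 429, 842 and 437 without sgEPCR replicate 1, 2 or 3. Without both libraries of high mitochondrial share it was 1615 (996 and 619). With an adjusted p of 0.05 as the only limit it was 6844 (3313 and 3531), and with 2-fold added 2286 (1410 and 876). The 661 list members called became 187, 214 and 207 in the limma fits. The 1236 differences of gaps past both limits became 2571 with DESeq2, 2061 with the GC offset, 8, 17 and 2 in the limma fits, 500 with the block, 424 with total counts, 617 to 1722 on leaving out 1 library and 3120 without both libraries. PROCR kept its direction at an adjusted p under 0.05 in all alternatives run, from -2.81 to -2.56. Of the values of single named genes under alternatives, 6279 kept direction and side of the threshold, 361 lost and 176 gained a call, and 0 changed direction. Total count scaling and limma on log2(TPM + 1) moved the median log2 difference of all genes from -0.02 to -0.13 and -0.23, so small differences such as those of the respiratory chain may turn on the scale; the cause of these changes was not tested. Depth limits genes with few counts, such as CCL4 and CCR7 in the controls.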

Other observations

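Other gene groups gave smaller or mixed values. Cholesterol synthesis genes were 5 higher and 6 lower of 27 in UM171, and 15 higher and 0 lower in DMSO. The exporters ABCA1 and ABCG1, which carry cholesterol out of the cell, were lower in the sgEPCR cells in UM171 (log2 -1.83 ± 0.07 and -1.59 ± 0.24, edgeR adjusted p = 8.8e-08 and 0.00036), and SQLE, an enzyme of synthesis, was higher (0.75 ± 0.07, adjusted p = 1.7e-05). Replication-dependent histone genes were 9 higher and 0 lower of 30 tested among 63 names, with H2BC21 at 1.43, 1.58 and 1.49 TPM in the controls and 6.2, 4.12 and 5.92 TPM in the edited cells, although these genes are near copies of each other and their transcripts mostly lack the poly(A) tails that the libraries select. ATP6V0D2, a proton pump subunit of osteoclasts and macrophages, held 4, 3 and 7 counts in the controls and 392, 289 and 496 in the edited cells.

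CDKN2A (chromosome 9, 21967752 to 21995301, minus strand) and MACROH2A2 (chromosome 10, 70052544 to 70112282, plus strand) were the 2 genes with at most 3 counts in each of the 6 sgEPCR libraries, in DMSO and UM171, and at least 20 in each of the 6 control libraries. No gene met the reverse (0 genes). They were looked for after the data were seen. CDKN2A held 40, 68 and 45 counts in the UM171 controls and 37, 33 and 33 in the DMSO controls, and 0 in all 6 sgEPCR libraries. MACROH2A2, a variant histone gene, held 100, 141 and 53 counts in the UM171 controls and 3, 3 and 1 in the edited cells. RPL39L was at 20, 26 and 11 counts in the UM171 controls and 0 in the edited cells in UM171.

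HMOX1, heme oxygenase, and SOD1 are given after their values were seen. HMOX1 was 2.88, 3.55 and 3.15 TPM in the UM171 controls and 33.79, 5.83 and 32.52 TPM in the edited cells (log2 2.95 ± 0.40, edgeR adjusted p = 0.00019), with a difference of -5.60 in DMSO. SOD1 was 349.85, 341.01 and 326.78 TPM against 254.67, 158.78 and 253.45 TPM (log2 -0.38 ± 0.11, adjusted p = 0.017), with a difference of 1.57 in DMSO.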
